A study of Mus musculus with 12 samples.

Results

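The C/D box small nucleolar RNAs (snoRNAs) were taken as the genes whose symbol starts with Snord and a digit in the platform's table of probe sets, where a probe set named that symbol alone. Each gene was read from its probe set of highest mean signal, and this gave 44 genes of 30063 on the array. Symbols chose the genes, and signal was used only to pick the probe set of those that had a second one. Livers of 12 mice of strain C57BL/6J -Oca2p-un/J, all 3 months old, were measured on Affymetrix whole-transcript arrays, 1 array per mouse. In 1 group, silver nanoparticles of 20 nm coated with polyvinylpyrrolidone (PVP-AgNP) were given by oral gavage at 4 mg silver per kg once a day for 7 days. A second group received particles of the same size, dose and schedule coated with citrate (cit-AgNP), and the control group received water. Each group held 2 females and 2 males, and the livers were taken 24 h after the last dose. The labels give 1 dose and 1 time, and they name no group that received the coating material or silver ions without particles.

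C/D box snoRNAs are short RNAs of the nucleolus that carry the conserved boxes C and D. Each assembles with fibrillarin (Fbl), Nop56, Nop58 and Snu13, and most guide this complex to a nucleotide of ribosomal or spliceosomal RNA, whose ribose is then methylated, while a few serve the cutting and folding of ribosomal RNA precursors. In mammals nearly all are cut from introns of host genes, many of which encode ribosomal proteins or noncoding RNAs, so a snoRNA and its host messenger RNA come from the same transcript. The RNA targets named here are those of the human orthologues.

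All 44 genes passed the filter on low signal, a mean over the 12 arrays above 3.93 on the log2 scale, and were tested among 19985 genes. Their means ran from 3.95 for Snord88c to 19.89 for Snord104, with 23 above 10 and 5 under 6. Snord104, a guide of large-subunit ribosomal RNA in human, lay at the table's ceiling of 19.93 on 10 of 12 arrays, so a change in it could not be read. By the RefSeq table of assembly GRCm38.p6, which was used for names, lengths and neighbouring genes, the members were 28 to 221 bases long (median 68) and lay on 16 chromosomes. A RefSeq gene spanned 41 of them, and 3 had none (Snord118, Snord13 and Snord89). Of the 41 that had a host, 13 lay in ribosomal protein genes, 8 in genes of ribosome assembly or nucleolar proteins, 14 in other protein-coding genes and 6 in noncoding genes. Snord8, Snord71 and Snord87, each spanned by a protein-coding and a noncoding gene, were counted with the protein-coding genes. No member came from the imprinted Snord113 to Snord116 clusters or was a Snord3 (U3) gene.

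With PVP-AgNP, 1 of the 44 snoRNAs, Snord16a, rose past the threshold, and 42 of 44 had a fitted difference above 0. Differences are log2 fold changes with the standard error (SE) of a limma fit to all 12 arrays with terms for group and sex, and a gene passed at a p under 0.05 after Benjamini-Hochberg adjustment over all 19985 genes. The median difference of the 44 was 0.36, against -0.0023 over all genes tested, and it ranged from -0.12 (Snord4a) to 1.68 (Snord118). At an unadjusted p under 0.05, 18 of 44 were higher and 0 were lower. Over all genes, 8 passed (0.04%), 8.05% were higher and 12.2% lower at an unadjusted p under 0.05, and 49.3% had a difference above 0.

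Snord16a lies within the span of the ribosomal protein gene Rpl4 and guides methylation of small-subunit ribosomal RNA in human. Its log2 signal was 16.43, 16.32, 17.31 and 17.03 in the PVP-AgNP livers, 15.45, 15.70, 16.44 and 16.34 in the cit-AgNP livers, and 16.05, 15.43, 15.94 and 15.32 in the control livers. All 4 PVP-AgNP livers lay above all 4 control livers, and within each sex they also lay above the cit-AgNP livers. The PVP-AgNP difference from control was 1.09 (SE 0.09, adjusted p = 0.0049, limma), a 2.13-fold rise. It was 1.00 (SE 0.14) in females and 1.18 (SE 0.14) in males, with adjusted p-values of 0.122 and 0.137 from 2 mice per mean. Leaving out any 1 array kept the gene past the threshold (12 of 12 fits), but 7 of 14 other settings did not. Its host Rpl4 had 15.55, 16.21, 16.21 and 16.02 in the PVP-AgNP livers and 16.30, 16.02, 16.25 and 16.22 in the control livers, a difference of -0.20 (SE 0.13, adjusted p = 0.401, limma).

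In 5 further members every PVP-AgNP liver lay above every control liver without the adjusted p reaching 0.05. With Snord16a these made 6 of 44, against 2.98% of all genes tested, and in 0 members did every PVP-AgNP liver lie below, against 4.92%. Snord49a and Snord49b, large-subunit guides in human, share the noncoding host 2410006H16Rik. Snord49a had 14.51, 14.04, 14.24 and 14.53 in the PVP-AgNP livers and 13.18, 13.46, 12.79 and 12.57 in the control livers. Its difference was 1.33 (SE 0.23, adjusted p = 0.0583, limma), the smallest p among the members after Snord16a, and without control replicate 2 the adjusted p was 0.0337. Snord49b had 15.42, 14.84, 15.38 and 15.28 in the PVP-AgNP livers and 14.40, 14.81, 14.43 and 14.11 in the control livers, a difference of 0.80 (SE 0.20, adjusted p = 0.114, limma). For both, the cit-AgNP livers lay below all PVP-AgNP livers, at 12.80, 13.02, 13.64 and 13.54 for Snord49a and at 13.88, 14.31, 14.61 and 14.72 for Snord49b.

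**Figure D1:**
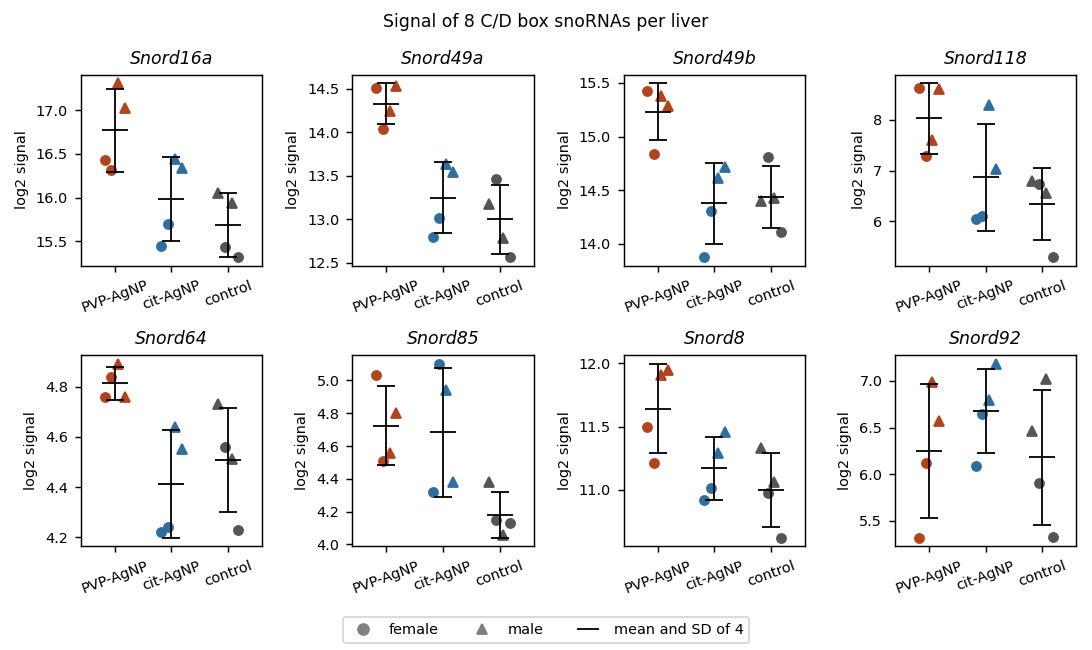
Log2 array signal of 8 C/D box snoRNAs per liver in the PVP-AgNP, cit-AgNP and control groups, with circles for females, triangles for males, and bars for the mean and SD of 4. For Snord16a, Snord49a, Snord49b, Snord118, Snord64 and Snord85 every PVP-AgNP liver lies above every control liver, while Snord16a, Snord8 and Snord92 show both females below both males in each group.

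Among the snoRNAs that act in cutting or modifying ribosomal RNA precursors by other means than methylation, Snord118 (U8), which is needed to mature the large-subunit RNAs, had the largest difference of any member. It had 8.63, 7.28, 7.60 and 8.61 in the PVP-AgNP livers, 6.05, 6.10, 8.29 and 7.04 in the cit-AgNP livers, and 6.79, 6.73, 6.55 and 5.30 in the control livers. The PVP-AgNP and control livers did not overlap, while 1 cit-AgNP male reached the PVP-AgNP range. The difference from control was 1.68 (SE 0.46, adjusted p = 0.131, limma), and the replicates of each group spread by an SD of 0.69 to 1.05. A second, dimmer probe set of Snord118 had log2 signals of 2.70 to 3.91 on the 12 arrays and was below the filter.

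Snord13 (U13), which guides acetylation of small-subunit ribosomal RNA, averaged 9.54 ± 0.39 in the PVP-AgNP livers, 9.68 ± 0.68 in the cit-AgNP livers and 9.16 ± 0.29 in the control livers (SD, n = 4 each). Its groups overlapped, with differences from control of 0.38 (SE 0.21) for PVP-AgNP and 0.52 (SE 0.21) for cit-AgNP, and neither passed. The U14 genes, which act in small-subunit precursor cleavage, were read as Snord14e, in the chaperone gene Hspa8, and Snord14a, in Rps13. Snord14e averaged 11.97 ± 0.71, 11.22 ± 0.70 and 11.10 ± 0.28 in the PVP-AgNP, cit-AgNP and control livers (SD, n = 4 each). Its PVP-AgNP difference was 0.88 (SE 0.35, adjusted p = 0.208, limma), and the copies of U14 are alike in sequence, so signal of 1 may include the other.

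Of the other guides, Snord8, which directs methylation of the U6 spliceosomal RNA in human, had 11.50, 11.21, 11.91 and 11.95 in the PVP-AgNP livers and 11.33, 10.97, 11.06 and 10.62 in the control livers. Within each sex both PVP-AgNP livers exceeded both control livers, although the groups overlapped when the sexes were pooled. Its difference was 0.64 (SE 0.12, adjusted p = 0.0719, limma). Snord64, a snoRNA of the imprinted Snhg14 transcript without a known RNA target, had 4.76, 4.84, 4.89 and 4.76 in the PVP-AgNP livers, against 4.73, 4.56, 4.51 and 4.23 in the control livers. That is a difference of 0.31 (SE 0.10, adjusted p = 0.157, limma) at a signal close to the filter, as is also true of Snord85 at 0.55 (SE 0.19, adjusted p = 0.177). Snord69 and Snord15a, large-subunit guides in human, had differences of 0.45 (SE 0.13) and 0.52 (SE 0.15). Snord61, a small-subunit guide in the gene of the RNA-binding protein Rbmx, had 0.66 (SE 0.23). None of these 3 passed.

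Within each sex, both PVP-AgNP livers exceeded both control livers for 10 of 44 members, against 5.27% of all genes, and both lay below in 0 members, against 9.15%. Among the other named members, Snord55, Snord66, Snord35a, Snord83b, Snord14a, Snord104, Snord91a and Snord92 had PVP-AgNP differences between 0.01 and 0.31, below the members' median. Snord110 had 0.42 (SE 0.24) and did not pass. Snord35a, in Rpl13a, had a difference of 0.23 (SE 0.25), which was -0.02 without control replicate 4. Snord4a, in Rpl23a beside Snord42a, had -0.12 (SE 0.17), while Snord42a had 0.23 (SE 0.11). Neither passed.

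**Figure D2:**
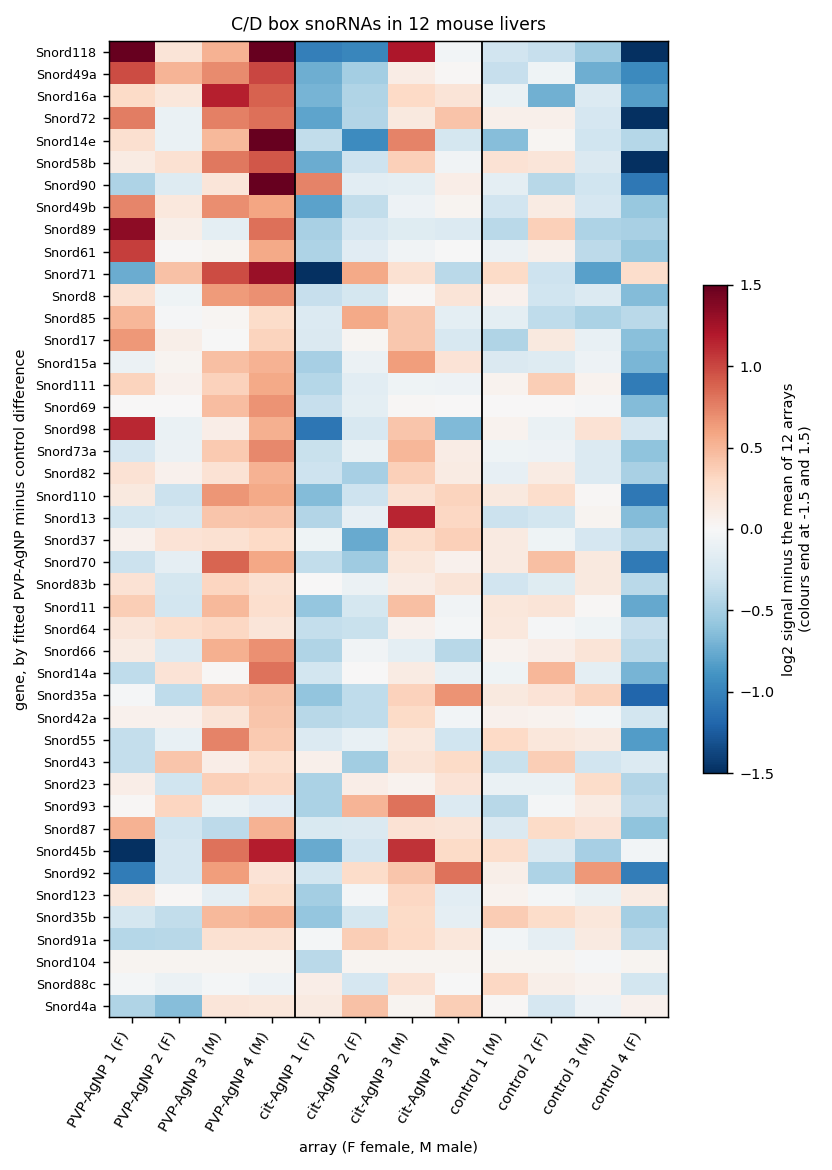
Heat map of the 44 snoRNA genes (rows, ordered by the fitted PVP-AgNP minus control difference) on the 12 arrays (columns, grouped as PVP-AgNP, cit-AgNP and control), coloured by log2 signal minus the gene's mean of 12 arrays. PVP-AgNP replicates 3 and 4 are above the mean for 38 and 42 of the 44 genes, and control replicate 4 and cit-AgNP replicate 1 for 4 and 5.

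With cit-AgNP none of the 44 snoRNAs passed (limma, adjusted p under 0.05), and 1 gene passed over the whole table (0.005%). The median difference of the members was 0.09, against 0.0004 over all genes, with 29 of 44 above 0, against 50.1% of all genes. Leaving out 1 array moved this median to between -0.02, without control replicate 4, and 0.27, without control replicate 2. At an unadjusted p under 0.05, 5 members were higher and 0 lower, against 2.75% and 3.82% of all genes. These 5 were Snord16a (0.30, SE 0.09), Snord85 (0.51, SE 0.19), Snord13 (0.52, SE 0.21), Snord91a (0.32, SE 0.13) and Snord15a (0.36, SE 0.15), with adjusted p-values of 0.514 to 0.736. In no member were all cit-AgNP livers above or all below the control livers, against 1.93% and 2.37% of all genes. Snord91a had 5.45, 5.85, 5.78 and 5.65 in the cit-AgNP livers and 5.44, 5.34, 5.61 and 5.07 in the control livers, so the groups shared the values from 5.45 to 5.61.

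Between the coatings 0 of 44 snoRNAs passed, and so did 0 genes of the whole table (0%, limma). The median PVP-AgNP minus cit-AgNP difference was 0.28, against -0.0006 over all genes, and 37 of 44 members were above 0, against 49.6%. At an unadjusted p under 0.05, 14 members were higher with PVP-AgNP, against 5.29% of all genes, and 2 lower, against 8.72%. The smallest p was that of Snord16a, at 0.79 (SE 0.09, adjusted p = 0.101, limma), followed by Snord49a at 1.08 (SE 0.23, adjusted p = 0.212). The 2 lower members were Snord4a at -0.43 (SE 0.17) and Snord91a at -0.30 (SE 0.13). In 6 members, against 2.36% of all genes, all PVP-AgNP livers lay above all cit-AgNP livers (Snord49a, Snord49b, Snord64 and Snord61, and Snord89 and Snord111, which the naming rule did not pick and which were named after their values were seen).

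**Figure D3:**
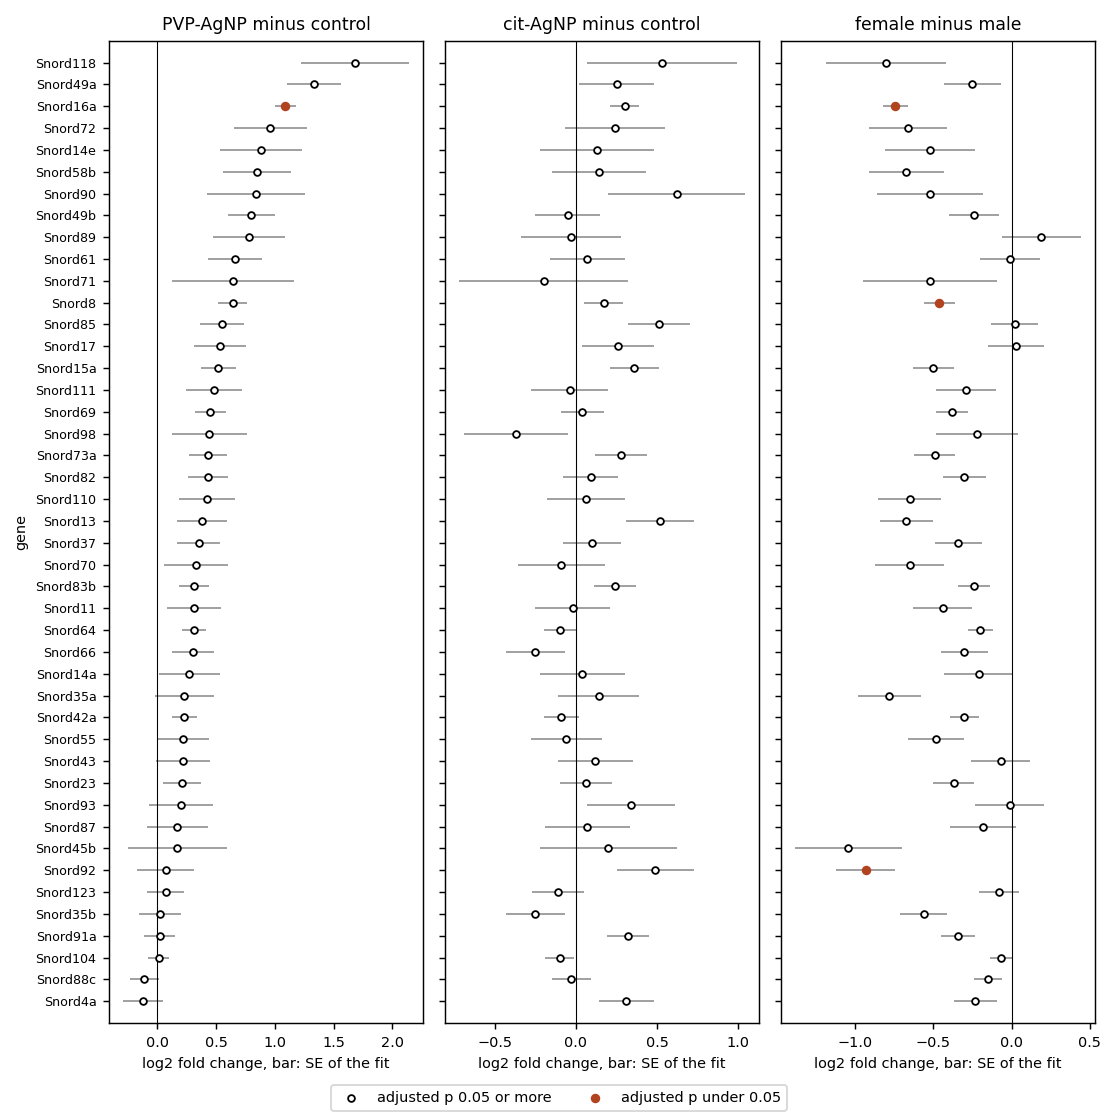
Fitted log2 fold change of each of the 44 snoRNAs (points) with the SE of the fit (bars) for PVP-AgNP minus control, cit-AgNP minus control and female minus male, in 1 order of genes and with filled points where the adjusted p was under 0.05. In the PVP-AgNP panel 42 of 44 points lie above 0, in the cit-AgNP panel 29, and in the female panel 3.

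In females, 3 of 44 snoRNAs (Snord16a, Snord92 and Snord8) were lower than in males, against 249 genes lower in females over the table (1.25%), and 2.18% of genes passed in either direction. The median female minus male difference of the members was -0.34, against -0.024 over all genes, and 3 of 44 lay above 0, against 42.7%. At an unadjusted p under 0.05, 22 members were lower in females and 0 higher, against 8.93% and 6.36% of all genes. The members' median was -0.44 among PVP-AgNP livers, -0.48 among cit-AgNP livers and -0.25 among control livers. Per control array, the members' median deviation from the 12-array mean was 0.02 and -0.57 in females (replicates 2 and 4). In control males (replicates 1 and 3) it was 0.01 and -0.08, so of the control females replicate 4 alone lay below both males.

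Snord16a fell by 0.74 on the log2 scale in females relative to males (SE 0.08, adjusted p = 0.000601, limma). It averaged 15.77 ± 0.48 in females and 16.52 ± 0.55 in males (SD, n = 6 each), and the pooled sexes overlapped because the groups differ. Snord92, in the ribosome assembly gene Wdr43, had 5.32 and 6.12 in PVP-AgNP females, 6.09 and 6.64 in cit-AgNP females and 5.91 and 5.33 in control females. Its males had 6.99 and 6.57 with PVP-AgNP, 6.79 and 7.18 with cit-AgNP, and 6.46 and 7.02 with water. The difference was -0.93 (SE 0.19, adjusted p = 0.0347, limma), and Snord8 had -0.46 (SE 0.10, adjusted p = 0.0462). In these 3 members both females lay below both males in each of the 3 groups, against 3.55% of all genes. Of the 12 fits that left out 1 array, 12 kept the call of Snord16a, 4 that of Snord92 and 2 that of Snord8.

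Markers of other cells differed between the sexes too. The 6 Kupffer cell markers had a median female minus male difference of 0.64 with 6 of 6 above 0, and 3 were higher at an unadjusted p under 0.05. The 3 tested neutrophil markers had a median of 1.30, and 2 were higher at an unadjusted p under 0.05. None of these markers passed (limma), and of all genes 6.36% were higher in females at an unadjusted p under 0.05. On the linear scale the Kupffer cell markers summed to 1750 to 9470 (females) and 1770 to 2120 (males). The neutrophil markers summed to 596 to 6220 (females) and 117 to 977 (males). Alas2, the heme synthesis enzyme of red cell precursors and the 1 erythroid marker tested, was lower in females and passed, at -2.94, with log2 signals between 7.37 and 8.88 (females) and between 10.28 and 11.36 (males). The part of these cells in the female minus male differences of the snoRNAs was not tested.

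Whether a coating acted differently in females than in males was asked gene by gene, from 2 mice per mean. No snoRNA passed for PVP-AgNP or for cit-AgNP, and 0 genes passed over the whole table (0%, limma). At an unadjusted p under 0.05, 2 members had a lower PVP-AgNP effect in females (Snord4a at -0.65, SE 0.23, and Snord45b at -1.89, SE 0.65, the second named after its values were seen), against 1.91% of all genes, and 0 a higher one, against 1.71%. For cit-AgNP 0 members had a lower or a higher effect, against 1.57% and 0.876% of all genes. The median PVP-AgNP difference from control was 0.30 within females, with 37 of 44 above 0, and 0.49 within males, with 43 of 44 above 0. Shares of all genes above 0 within a sex are not given here. The median cit-AgNP difference was -0.02 within females and 0.21 within males. Single control females moved these contrasts. The members' median PVP-AgNP effect in females minus males was -0.12, but -0.48 without control replicate 4 and 0.11 without control replicate 2. For cit-AgNP the median was -0.23, but -0.56 without control replicate 4 and 0.09 without control replicate 2.

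The shift was then set against each array as a whole. The median of the 44 snoRNAs was 11.42, 11.04, 11.42 and 11.76 in the PVP-AgNP livers, 10.76, 10.74, 11.07 and 10.92 in the cit-AgNP livers, and 10.81, 11.15, 10.92 and 10.59 in the control livers. On average it was 0.54 higher with PVP-AgNP than in controls and 0.00 higher with cit-AgNP, and 1 control female exceeded 1 PVP-AgNP female. A median of signals follows the members of middle signal. The members' median deviation from each gene's own control mean averaged 0.395 with PVP-AgNP, 0.0975 with cit-AgNP and 0.02 in controls. The median over all 72688 probe sets was 4.40, 4.17, 4.20 and 4.28 in the PVP-AgNP livers, 4.15, 4.17, 4.21 and 4.21 in the cit-AgNP livers, and 4.18, 4.21, 4.13 and 4.14 in the control livers. The PVP-AgNP arrays were thus 0.0985 higher than the control arrays on average (exact two-sided permutation p = 0.143, where 4 against 4 allows no less than 0.0286). Centring every array on its median over all probe sets left the PVP-AgNP difference of the snoRNA medians at 0.444 in place of 0.542. The members' median difference was then 0.27 in place of 0.36, with 37 of 44 members above 0, against 30.9% of all genes. After quantile normalization 41 of 44 were above 0, against 37% of all genes. For the tested genes, each gene's deviation from its own 12-array mean had a median between -0.026 and 0.021 on every array.

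**Figure D4:**
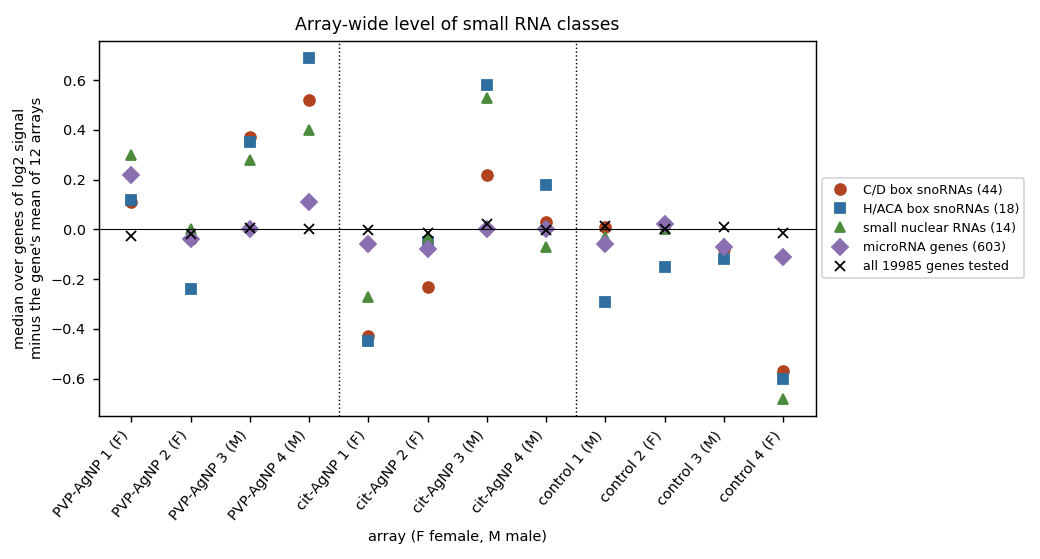
Per array (horizontal axis), the median over genes of log2 signal minus each gene's mean of 12 arrays, for C/D box snoRNAs (44), H/ACA box snoRNAs (18), small nuclear RNAs (14), microRNA genes (603) and all 19985 genes tested, counting every gene with a probe set also where it was below the filter. The C/D box snoRNAs run from -0.57 in control replicate 4 to 0.52 in PVP-AgNP replicate 4, while the tested genes stay between -0.026 and 0.021.

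Other small RNA classes differed in the same comparison. The 17 tested H/ACA box snoRNAs, which guide pseudouridylation, had a median PVP-AgNP difference of 0.65, the 5 small Cajal body RNAs 0.57, the 14 small nuclear RNA genes 0.51, the 69 nuclear-encoded 5S ribosomal RNA genes 0.18 and the 362 microRNA genes 0.20. None of the genes of these classes passed for either coating (limma), although at an unadjusted p under 0.05, 9 H/ACA box and 6 small nuclear RNA genes were higher with PVP-AgNP and 1 and 0 lower, against 8.05% higher and 12.2% lower of all genes. With cit-AgNP, 5 H/ACA box and 4 small nuclear RNA genes were higher and 1 and 0 lower, against 2.75% and 3.82% of all genes. Their cit-AgNP medians were 0.39 (H/ACA), 0.13 (Cajal body), 0.33 (small nuclear), 0.14 (5S) and 0.03 (microRNA). Every array was also centred on 1 median, pooled without a filter over the genes of these classes and 2 genes named Rny. Of the pooled genes 603 were microRNA genes, whose array medians of 4.06 to 4.43 lay near the filter of 3.93. With this centring the members' median PVP-AgNP difference was 0.17 in place of 0.36, and 35 of 44 were above 0. The median over all genes was then -0.20, and 18.1% were above 0. Snord16a had 0.89 (adjusted p = 0.0555, limma) there.

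A quality measure, the exon over intron area, was read on each array. It is the share of pairs of exon and intron control probe sets in which the exon control was brighter. The area was 0.778, 0.821, 0.815 and 0.794 in the PVP-AgNP livers, 0.824, 0.827, 0.814 and 0.817 in the cit-AgNP livers, and 0.829, 0.804, 0.821 and 0.842 in the control livers. The PVP-AgNP minus control difference was -0.0219 (exact two-sided permutation p = 0.171), and the groups overlapped. With the area as a covariate the members' median PVP-AgNP difference was 0.18 in place of 0.36, and 1 of 44, Snord16a, passed, with 2 over all genes. Without PVP-AgNP replicates 1 and 4, the arrays of lowest area, the members' median difference was 0.36 and that of the array medians 0.364 in place of 0.542. There 0 of 44 passed, with 0 over all genes, and Snord16a had 1.14 (adjusted p = 0.126, limma).

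Of cell types, the 6 hepatocyte markers averaged 19.86 to 19.93, at or near the ceiling, on all arrays. The 5 neutrophil markers summed to 552 to 6220 on the linear scale in the PVP-AgNP livers, 581 to 987 in the cit-AgNP livers and 117 to 904 in the control livers. PVP-AgNP replicate 2, a female, gave the 6220, and the other PVP-AgNP livers had 552 to 977. None of the 3 tested ones passed (limma), 2 were higher with PVP-AgNP at an unadjusted p under 0.05, and Mpo and Ngp stayed near the lowest signals of the array, at 3.20 to 4.05. The 6 Kupffer cell markers summed to 1800 to 9470 in the PVP-AgNP livers, 1770 to 5260 in the cit-AgNP livers and 1750 to 3820 in the control livers. The median difference of these markers was 0.43 for PVP-AgNP and 0.38 for cit-AgNP, with 6 of 6 above 0 for each coating. For both coatings 0 of 6 passed or had an unadjusted p under 0.05 (limma). The 9470 was again PVP-AgNP replicate 2, with 1800 to 2450 in the other PVP-AgNP livers. The 5 stellate cell markers summed to 742 to 1430 in the PVP-AgNP livers, 940 to 1780 in the cit-AgNP livers and 1070 to 1780 in the control livers. Their PVP-AgNP differences had a median of -0.09 with 0 of 5 above 0, 2 were lower at an unadjusted p under 0.05 and 0 passed (limma). The 5 markers of sinusoidal endothelium summed to 1910 to 3250 in the PVP-AgNP livers, 2380 to 3440 in the cit-AgNP livers and 2550 to 3030 in the control livers. Their median difference was -0.31 with 1 of 5 above 0, 1 was lower at an unadjusted p under 0.05 and 0 passed (limma). Over all genes, 8.05% were higher and 12.2% lower with PVP-AgNP at an unadjusted p under 0.05. In whole livers, fewer cells of a type and less RNA per cell cannot be told apart, and the part of these cells in the snoRNA differences was not tested.

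The host genes were read as a check on the shared transcript. Of 42 host genes, 24 had a probe set of 1 symbol and 23 were tested, and 0 passed in any of the comparisons of coatings or sexes. For PVP-AgNP, 1 was higher and 2 lower at an unadjusted p under 0.05, against 8.05% and 12.2% of all genes. The hosts' median PVP-AgNP difference was -0.04. There were 24 pairs of a snoRNA and a tested host, from 21 snoRNAs and 23 hosts. Hosts were taken by span without regard to strand, so a pair need not share a transcript. The snoRNA's PVP-AgNP difference was above that of its host in 23 pairs, and its cit-AgNP difference in 13. For female minus male, the snoRNA was below its host in 24 of 24 pairs. Rps3a1, host of Snord73a, had 0.38 (SE 0.12), close to the 0.43 (SE 0.16) of that snoRNA, which was named here for its host after the values were seen. Hspa8, host of Snord14e, lay at or near the ceiling, with a difference of 0.00 (SE 0.03).

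**Figure D5:**
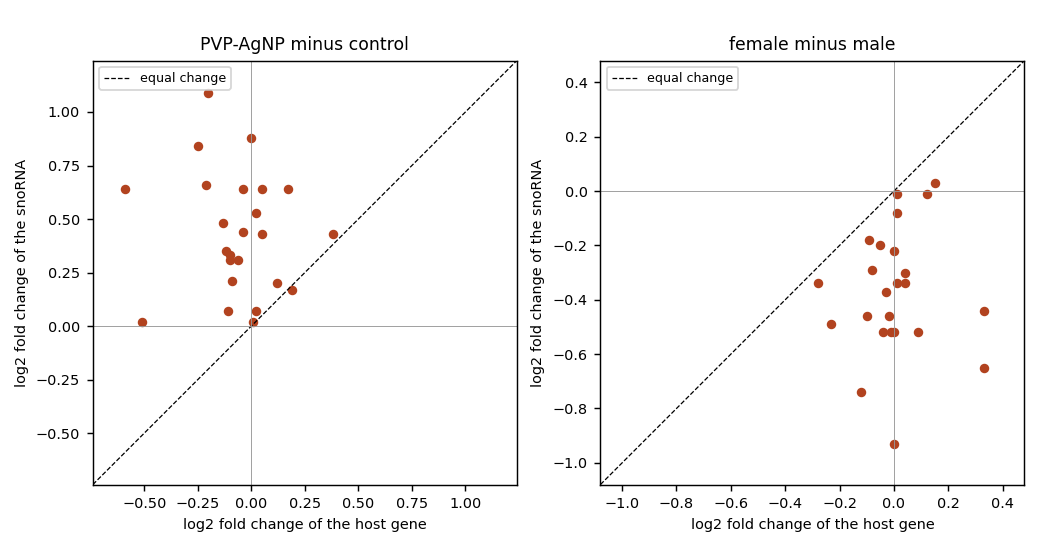
Log2 fold change of each snoRNA (vertical) against that of its tested host gene (horizontal) in 24 pairs (21 snoRNAs and 23 hosts), for PVP-AgNP minus control and for female minus male, with a dashed line of equal change. In the first panel 23 of 24 pairs lie above the line, and in the second all 24 lie below it.

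By kind of host, the members in ribosomal protein genes had a median PVP-AgNP difference of 0.27 (13 members, 12 above 0), those in genes of ribosome assembly or nucleolar proteins 0.32 (8 of 8), those in other protein-coding genes 0.50 (13 of 14) and those in noncoding genes 0.25 (6 of 6). The 3 without a host in the table had 0.38, 0.78 and 1.68. Of the 36 tested ribosomal protein genes that host no member, 0 passed (limma) and their median was 0.05. At an unadjusted p under 0.05, 4 were higher and 2 lower, against 8.05% and 12.2% of all genes. Differences between these kinds were not tested.

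Next came the proteins that form or assemble the C/D box particle. Of 13 genes listed, 10 were tested and 0 passed in any of the 4 comparisons. At an unadjusted p under 0.05, 0 were higher with PVP-AgNP, against 8.05% of all genes, and 2 lower, against 12.2%. These were Ruvbl2, an ATPase of the assembly complex, at -0.12, and its cofactor Pih1d1 at -0.29. Nop58, a core protein and host of Snord11 and Snord70, had 11.16, 10.80, 10.16 and 10.62 in the cit-AgNP livers and 9.11, 9.41, 9.43 and 10.46 in the control livers. That is a difference of 1.08 (SE 0.28, adjusted p = 0.384, limma), with control replicate 4 inside the cit-AgNP range, against -0.02 (SE 0.23) for Snord11 and -0.09 (SE 0.27) for Snord70. Fbl, the methyltransferase, had a PVP-AgNP difference of 0.07.

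A further 25 probe sets named a Snord gene together with other symbols, among them Snord32a, Snord33 and Snord34 of the Rpl13a locus, and were kept apart. In a fit to 38358 probe sets, 0 of 25 passed for PVP-AgNP. At an unadjusted p under 0.05, 2 were higher and 1 lower, with 15 of 25 above 0 and a median of 0.07. Shares over those probe sets are not given here, so shares of the 19985 genes of the main fit stand beside the counts. For PVP-AgNP these were 8.05% higher, 12.2% lower and 49.3% above 0. For cit-AgNP 0 passed, with 6 higher and 0 lower, against 2.75% and 3.82% of the genes. Of the 25, 19 were above 0, against 50.1% of the genes, and the median was 0.09. Between the coatings 0 passed, and 3 were higher and 3 lower with PVP-AgNP, against 5.29% and 8.72% of the genes. The 3 higher ones named Snord116l1 or Snord116l2 and had the same values on all 12 arrays, at a mean of 4.32. They hold 1 signal that is counted 3 times in each comparison. Between the coatings 8 of 25 were above 0, these 3 among them, against 49.6% of the genes, and the median was -0.06. The 25 probe sets thus did not share the members' lean towards PVP-AgNP. A signal of such a probe set may come from its host transcript or from the snoRNA. The second probe set of Snord58b, in Rpl17, had a PVP-AgNP difference of 0.89 beside 0.85 (SE 0.29) for its brighter one, and this gene was named because it has 2 bright probe sets.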

How the data were processed

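Total RNA of 12 livers was extracted with Trizol and biotin-labelled for Affymetrix arrays, per the labels' protocols. The deposited table holds log2 signals of 72688 probe sets. Per the submitters' processing notes the tools were Transcriptome Analysis Console 4.0.1.36 and RMA, a method that summarises probe signals over arrays, and their settings are not given in the sources used here. The genome build is not given in the sources used here. Genes were assigned from the platform's own annotation (30604 probe sets with 1 symbol, 2146 with several, 39938 with none), 1135 symbols were updated through RefSeq, and hosts were RefSeq genes spanning a member, without regard to strand. The number of arrays, 4 a group, limits the precision, and p-values cover the spread between these mice.

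Fits used limma 3.58.1 in R 4.3.3 with group and sex as terms and the spread moderated along the mean, over the 19985 genes whose mean exceeded the 40th percentile of probe-set means. Effects within each sex came from a model of 6 means, 1 for each group and sex. The fit was tested on simulated data. Single values per array were compared by an exact permutation test. The members and lists were chosen with earlier results of these data known.

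Members were named if among the 8 of smallest p in a comparison of groups, past the threshold, among the 6 brightest, or fixed by name for pre-ribosomal RNA processing or the Rpl13a locus. Alternatives were other filters, models, scalings and left-out arrays.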

Additional observations from a re-analysis of the deposited data

Results flagged for a closer look

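In 4 members a single control liver, replicate 4, a female, stood apart from the other 3 by a gap that took up most of the group's range (Dixon's test at 95%). Snord118 had 5.30 there, against 6.55 to 6.79 in the other control livers. Snord35a had 13.40, against 14.74 to 14.91. Snord55 had 15.78, against 16.75 to 16.92. Snord69 had 18.06, against 18.69 to 18.71. The test was made for 69 groups of 4 (23 members in 3 groups), and chance flags about 1 in 20. The same array was the lowest of 12 for 24 of the 44 members. Without it, the PVP-AgNP minus control difference of the mean array medians of the members was 0.450 in place of 0.542.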

How the results depend on the processing

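The count of members past the threshold for PVP-AgNP against control was 1, with 8 over all genes tested. It was 3 without the trend in the spread (52 over all genes) and 2 with a filter at the 60th percentile (85 over all genes). Without the sex term it was 0, with 2 over all genes. It was 0 with only the groups compared, after quantile normalization, with arrays centred on the other small RNA classes and without the 2 arrays of lowest area. In each of those fits 0 passed over all genes. Leaving out 1 array gave 1 to 2, with 2 without control replicate 2 (Snord16a and Snord49a, 14 over all genes). Over all genes, leaving out 1 array gave 1 to 61. For female against male the count was 3, with 435 over all genes. It was 1 with arrays centred on their median (337 over all genes) or on the small RNA classes (308 over all genes). It was 5 when area was a covariate (930 over all genes) and 1 when the 2 lowest-area arrays were left out (322 over all genes). Leaving out 1 array gave 1 to 13, with 13 without control replicate 2 (605 over all genes). It gave 1 without control replicate 1, 3 or 4, cit-AgNP replicate 1 or 4, or PVP-AgNP replicate 3 or 4 (264 to 316 over all genes). Over all genes, quantile normalization gave 275 higher and 215 lower in females in place of 186 and 249. The counts for cit-AgNP, PVP-AgNP against cit-AgNP and both interactions were 0 in all settings run.

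With the replicate number as a block, the PVP-AgNP count was 0 with or without the sex term (0 over all genes), and the female count was 0 (56 over all genes). The numbers do not pair the samples: in PVP-AgNP and cit-AgNP replicates 1 and 2 are female, in control replicates 2 and 4. Deviations of same-numbered arrays from their group means correlated between -0.515 and 0.526. They were positive in all 4 pairs only between PVP-AgNP and cit-AgNP (0.167 to 0.526), where numbers go with sex, and -0.015 to -0.440 there once sex was removed. The block changed no other call.

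The difference of mean array medians for PVP-AgNP was 0.542 and ran from 0.427 to 0.666 with 1 array left out. It was 0.444 under centring on the array median, 0.345 under centring on the small RNA classes and 0.364 without the 2 lowest-area arrays. For cit-AgNP it was 0.002, with -0.018 under centring on the array median, -0.079 under centring on the small RNA classes and -0.090 to 0.096 with 1 array left out (-0.063 and -0.014 without cit-AgNP replicates 3 and 4, -0.017 and -0.090 without control replicates 1 and 4), all within the spread between replicates. Some members, not all given here, had a PVP-AgNP difference that turned negative in at least 1 setting. Snord35a had -0.17 with the area as a covariate and -0.02 to 0.51 with 1 array left out, the lowest without control replicate 4. With 1 array left out and otherwise, the lowest values were -0.03 and -0.36 for Snord87 and -0.04 and -0.18 for Snord91a. They were -0.07 and -0.13 for Snord92 and -0.17 and -0.03 for Snord45b. Snord11 had -0.04 outside the fits that left out 1 array. Snord104 had -0.08 and -0.18 under the centrings, and -0.01 to 0.03 with 1 array left out, the lowest without control replicate 3. It lay at the ceiling on 10 of 12 arrays, so the centrings mainly subtracted each array's shift from a fixed value. Snord4a was negative but reached 0.01 with 1 array left out. The causes were not tested.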
